A study of Mus musculus with 25 samples.

Results

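The genes described here are the acyltransferases and lipins that build triglyceride, as their transcripts were found in pgWAT, the perigonadal white fat depot of male mice. The 10 genes were Gpam, Agpat2, Agpat3, Lpin1, Lpin2, Lpin3, Dgat1, Dgat2, Mogat1 and Mogat2. They were chosen by name, and every array probe carrying one of these symbols was taken, which gave 25 of the 56605 distinct gene probes. After the filter on dim probes, 23 of these were tested among 39619 probes of 25934 genes, and each of the 10 genes kept at least 1 probe. The 25 arrays came from male C57BL6/J mice that had fasted for 24 h and were then refed for 18 h with food and with 20% glucose in the drinking water, a regimen that activates the glucose-sensing transcription factor ChREBP (gene Mlxipl). The ChREBPβ KO group (6 arrays) carried a CRISPR/Cas9 deletion of the exon that is specific to the ChREBPβ isoform, and the ChREBPβ WT group (7 arrays) held wild-type littermates. The total ChREBP KO group (5 arrays) came from Mlxipl-null mice without ChREBPα and ChREBPβ, and the total ChREBP WT group (7 arrays) from wild types of that line. Both deletions were present in the whole body, so that liver and other tissues lacked the protein as well as fat cells, and the age of the mice is not given in the sources used here.

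An adipocyte stores fatty acids by attaching them to a glycerol backbone. Glycerol-phosphate acyltransferases (Gpam) and then acylglycerol-phosphate acyltransferases (Agpat2, Agpat3) add the acyl chains that make phosphatidate, lipins (Lpin1, Lpin2, Lpin3) remove the phosphate to give diacylglycerol, and diacylglycerol acyltransferases (Dgat1, Dgat2) add the last chain. Monoacylglycerol acyltransferases (Mogat1, Mogat2) reach diacylglycerol by another entry, from monoacylglycerol, a route best known from intestinal fat absorption. ChREBP is known for switching on the synthesis of fatty acids from glucose in liver and fat, and the comparisons asked which of the steps that esterify those fatty acids depended on ChREBPβ alone or on both isoforms.

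Each probe is a 60-base oligonucleotide, and a gene with several probes was read at several places along its transcripts. The probes shown first are those behind the calls in the comparison of total ChREBP KO with its wild type, namely both probes of Agpat3, all 4 of Lpin1 and the tested probe of Lpin3, followed by both probes of Mogat2, the gene with the largest differences that missed the threshold. The first 30 of the 60 bases are printed 5′ to 3′, with the mm9 position and strand of the whole probe as the array design gives them.
Agpat3, A_52_P523569, chr10:77734394-77734453, minus strand: cttctgagagcaataaaaactacactagta
Agpat3, A_55_P2152592, chr10:77736356-77736415, minus strand: acacccataacctgatgcggtatccaatta
Lpin1, A_65_P10394, chr12:16543023-16543082, minus strand: tatatgggtaccatacatttcaaagttgct
Lpin1, A_55_P2083481, chr12:16543695-16543754, minus strand: aggtctcatgtggtccacatagttcacagg
Lpin1, A_55_P2735215, chr12:16571310-16571369, minus strand: atggaccctgaagtggcagccctgtatttc
Lpin1, A_55_P2883270, chr12:16587593-16587652, minus strand: agctctacaagggactgaaccccgccacgc
Lpin3, A_55_P2083464, chr2:160731469-160731528, plus strand: ctcagtacagccctgacctctaacaattaa
Mogat2, A_51_P411345, chr7:106367601-106367660, minus strand: ctctgtcttggcactgaagggcagcactgt
Mogat2, A_52_P125795, chr7:106375119-106381004, minus strand: catatggaagtacatgaaggattatttccc
The position of the second Mogat2 probe covers 5886 bases of genome for 60 bases of probe, so that its letters lie in separate blocks. Likewise the Dgat1 probe covers 147 bases and a Lpin2 probe (A_51_P370438) covers 367. No member probe shared a run of 20 bases with a probe named for another gene or with another probe of its own gene. No annotation of mm9 was used, so exon and untranslated region are not stated. Of the 25 probe accessions, 19 matched the same symbol in the RefSeq gene table and 6 were not matched.

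Levels are log2 quantile-normalised median intensities, and a gene is given by the brightest of its kept probes. Because probes differ in brightness, levels are compared between groups for 1 probe and never between genes. In bulk tissue, fewer cells of a type and less RNA per cell cannot be told apart. Median intensity per array ran from 84 to 127 before normalisation, over a local background of 15 to 22, and 0 spots were saturated. Arrays of the same group correlated at 0.971 to 0.997. The labels number the arrays of a group as replicates. The p-values set a difference against the spread between arrays, estimated over all 4 groups together with wash batch fitted. Mlxipl fell by 1.75 log2 units in total ChREBP KO (limma, Benjamini-Hochberg adjusted p = 3.17e-08), and in ChREBPβ KO it differed by -0.73 (limma adjusted p = 0.14). The place of its probe relative to the exon deleted in ChREBPβ KO is not stated, so the probe is no check of that deletion. All 8 adipocyte markers were well above background on every array. Their summed level was 20.02 to 20.17 in total ChREBP WT and 20.38 to 20.42 in total ChREBP KO, without overlap, and 3 of the 8 were called higher there (Lpl, Plin1 and Cidec). RNA of genes that mark other organs was detected too, and where it was made was not tested. The summed level of 6 hepatocyte markers (Alb, Apoa1, Apoc3, Ttr, Fgb and Serpina1a) was 16.54 to 19.64 in ChREBPβ WT, 15.09 to 19.34 in ChREBPβ KO, 12.02 to 17.03 in total ChREBP WT and 11.78 to 12.48 in total ChREBP KO, and 4 of the 6 were well above background on every array. Some results are set beside the hepatocyte markers below, and the part of the markers in those results was not tested beyond the fits named there. The mean marker level on an array was 12.83 to 16.46 in ChREBPβ WT and 11.31 to 15.92 in ChREBPβ KO. It was 7.94 to 13.54 in total ChREBP WT and 7.34 to 8.57 in total ChREBP KO. Because this mean differed with the groups, a fit with it as a covariate cannot tell marker RNA from line or genotype.

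Loss of ChREBPβ alone left no member called. With both isoforms missing, Agpat3 and Lpin1 fell and Lpin3 rose, and the other 7 genes did not pass the test. In ChREBPβ KO against its wild type, 0 of the 10 members were called by limma at a Benjamini-Hochberg adjusted p under 0.05, and of all genes tested 0.00771% were called. An unadjusted p under 0.05 was found for 1 member (Mogat2) and for 9.71% of all genes, a like share. In total ChREBP KO against its wild type, 2 members were lower where the background was 3.62%, and 1 was higher where it was 5.75%. Groups without overlap were found for 3 of the 10 members (Agpat3, Lpin1 and Mogat1) and for 7.58% of all genes. When the effects of the deletions were compared directly, 0 of the 10 genes were called at their brightest probe, where 3.49% of all genes were, and 5 had an unadjusted p under 0.05, where 13.4% of all genes had. More members differed between the wild types of the lines. Compared with ChREBPβ WT, total ChREBP WT had 5 members higher where the background was 13.4% and 1 lower where it was 8.72%, and 3 members did not overlap against 5.53% of all genes. Markers of several tissues and Mlxipl itself also differed between the wild types. Mlxipl was higher in the total ChREBP line by 0.89, as were the brown fat genes Cidea by 2.01 and Cox8b by 1.31 and the epididymis gene Adam7 by 3.73. The intestine genes Fabp2 and Apoa4 differed by -4.28 and -5.49 and the kidney gene Miox by -3.21. Adjusted p-values of these 7 genes were 0.000105 to 0.0208 in limma, and their part in the members' differences was not tested. Other brown fat markers were not called, with Elovl3 at -1.96, Dio2 at 0.91 and Ucp1 at 0.18 (limma adjusted p = 0.0743, 0.0712 and 0.626). Nor was the intestine marker Vil1, at 0.22 (limma adjusted p = 0.85). The kidney marker Slc34a1 was called at -1.53 (limma adjusted p = 0.0498). Adam7 was the only epididymis marker with a kept probe. Of the 8 adipocyte markers, 1 was called higher, Lipe by 0.50, and 1 lower, Lep at -0.83 (limma adjusted p = 0.00647 and 0.0191). The muscle markers Myh4 and Mylpf were each called higher by 0.28 (limma adjusted p = 0.014 and 0.0379). Acta1, another muscle marker, was not called, at -0.49 (limma adjusted p = 0.56). The part of these markers in the members' differences was not tested either. The median difference of the 10 members was -0.08, -0.03 and 0.26 log2 units in the ChREBPβ, total ChREBP and wild-type comparisons, and 0.02, 0.02 and 0.04 over all genes.

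**Figure D1:**
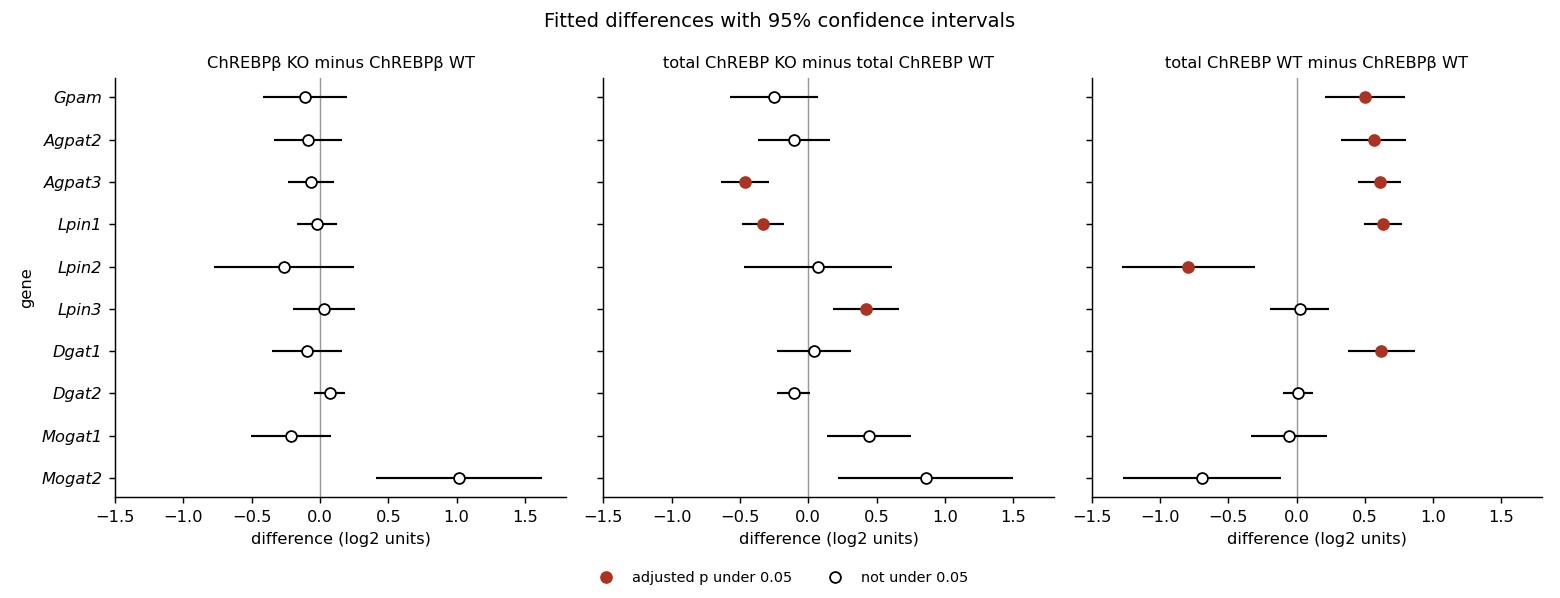
Fitted differences of the 10 genes in log2 units (x axis) in the ChREBPβ, total ChREBP and wild-type comparisons, 1 gene per row, with 95% confidence intervals from limma. Filled points passed an adjusted p under 0.05: none of 10 in the first panel, 3 in the second (Agpat3 and Lpin1 lower, Lpin3 higher) and 6 in the third.

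The level on every array shows how far the groups separated. Agpat3 and Lpin1 had the same layout. In both, the total ChREBP WT arrays lay above all other arrays, the total ChREBP KO arrays lay between them and the ChREBPβ line or overlapped with it, and the groups of the ChREBPβ line lay together.

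**Figure D2:**
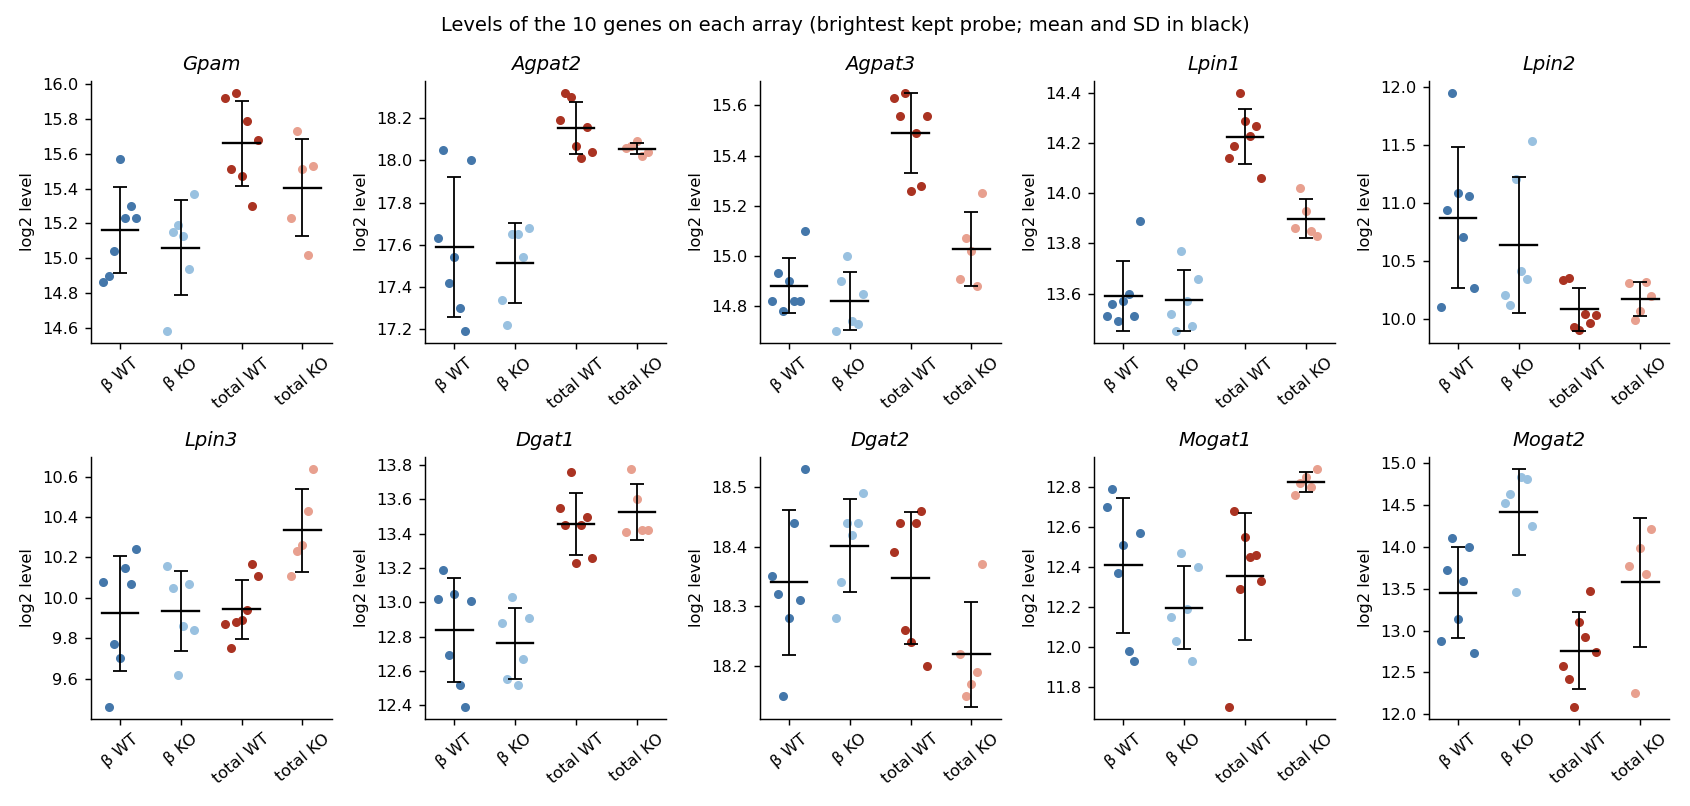
Log2 level (y axis) of each of the 10 genes on every array, by group (x axis), with the group mean and SD in black and a separate y range per gene. For Agpat3 and Lpin1 the total ChREBP WT arrays lie above the 3 other groups, for Mogat1 the total ChREBP KO arrays lie above those of their wild type, and Lpin2 spreads most in the ChREBPβ line.

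Gpam encodes the mitochondrial glycerol-phosphate acyltransferase that starts the pathway and is a known target of lipogenic transcription factors. Its level was 14.86, 15.23 and 15.57 (lowest, median and highest) in ChREBPβ WT and 14.58, 15.14 and 15.37 in ChREBPβ KO. In total ChREBP WT it was 15.30, 15.68 and 15.95, and in total ChREBP KO the arrays read 15.02, 15.23, 15.51, 15.53 and 15.73. The groups of each line overlapped. The difference was -0.11 log2 units for ChREBPβ (95% interval -0.41 to 0.20, limma adjusted p = 0.891) and -0.25 for total ChREBP (95% interval -0.57 to 0.07, limma adjusted p = 0.412). Neither passed the test. Between wild types, Gpam was higher in the total ChREBP line by 0.50 ± 0.14 (SE, limma adjusted p = 0.0143), and its second probe (A_52_P11388) differed there by 1.26 (limma adjusted p = 0.000374). The call on the brightest probe was lost without total ChREBP WT replicates 2, 3 and 6, the arrays of that group with the highest hepatocyte marker means (13.54, 10.81 and 11.79), left out together after the data were seen (0.43, limma adjusted p = 0.0992) and with replicate number as a block (0.43, limma adjusted p = 0.067).

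The next step, the transfer of a chain onto lysophosphatidate, was read by Agpat2 and Agpat3. Agpat2 is the form that fat cells depend on, and its loss causes congenital lipodystrophy. Its level in ChREBPβ WT was 17.19, 17.54 and 18.05 (lowest, median and highest), in ChREBPβ KO 17.22, 17.60 and 17.68, and in total ChREBP WT 18.01, 18.16 and 18.32. The total ChREBP KO arrays read 18.02, 18.04, 18.06, 18.07 and 18.09, all inside the range of their wild type. Accordingly the knockouts differed from their wild types by -0.09 (95% interval -0.34 to 0.16) and -0.10 (95% interval -0.37 to 0.16), and neither difference passed the test (limma adjusted p = 0.886 and 0.740). The wild types differed by 0.57 ± 0.11 (SE, limma adjusted p = 0.00125), with only the highest ChREBPβ WT array reaching the lowest of total ChREBP WT. With the mean level of the hepatocyte markers as a covariate it was 0.62 (limma adjusted p = 0.0528).

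Agpat3 encodes a lysophosphatidate acyltransferase of the endoplasmic reticulum and Golgi apparatus that also acts on phospholipids. It fell in total ChREBP KO, 1.38-fold. Its level was 15.26, 15.56 and 15.65 (lowest, median and highest) in total ChREBP WT, whereas the total ChREBP KO arrays read 14.88, 14.91, 15.02, 15.07 and 15.25. Every knockout array lay below every wild-type array of that line, though the closest pair, knockout replicate 7 at 15.25 and wild-type replicate 5 at 15.26, nearly met. The means were 15.49 ± 0.16 (SD, n = 7) and 15.03 ± 0.15 (SD, n = 5), and the fit gave a difference of -0.46 ± 0.08 (SE, limma adjusted p = 0.000821). The second probe (A_52_P523569), printed above and placed nearer to the end of the gene on the minus strand, gave a difference of -0.54 ± 0.06 (SE, limma adjusted p = 3.79e-06). With the hepatocyte markers as a covariate the difference at the brightest probe was -0.42 (limma adjusted p = 0.0122). In the ChREBPβ line Agpat3 was 14.78, 14.82 and 15.10 in the wild type and 14.70, 14.80 and 15.00 in the knockout, a difference of -0.07 ± 0.08 (SE, limma adjusted p = 0.870). The order of the group means ran from ChREBPβ KO and ChREBPβ WT, which did not differ beyond their spread, through total ChREBP KO to total ChREBP WT. Total ChREBP WT was above ChREBPβ WT by 0.61 ± 0.08 (SE, limma adjusted p = 2.1e-05), without overlap. The ChREBPβ WT mean was 14.88 ± 0.11 (SD, n = 7) and the ChREBPβ KO mean 14.82 ± 0.12 (SD, n = 6), and neither was tested against total ChREBP KO.

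Lpin1 is the main lipin of adipose tissue, a phosphatidate phosphatase that also acts in the nucleus on lipid genes. It fell 1.26-fold in total ChREBP KO. Its level was 14.06, 14.23 and 14.40 (lowest, median and highest) in total ChREBP WT, and the total ChREBP KO arrays read 13.83, 13.85, 13.86, 13.93 and 14.02. These groups did not overlap, and the knockout arrays lay close together. The means were 14.23 ± 0.11 (SD, n = 7) and 13.90 ± 0.08 (SD, n = 5), with a difference in the fit of -0.33 ± 0.07 (SE, limma adjusted p = 0.00502). With replicate number as a block it was -0.30 (limma adjusted p = 0.0691). Its other probes, spread over the gene as printed above, differed by -0.40 (A_55_P2083481, limma adjusted p = 0.0252), -0.48 (A_55_P2735215, limma adjusted p = 0.00139) and -0.38 (A_55_P2883270, limma adjusted p = 0.0603), so that 3 of the 4 were called and all 4 were lower. In the ChREBPβ line Lpin1 was 13.49, 13.56 and 13.89 in the wild type and 13.45, 13.54 and 13.77 in the knockout. The difference of -0.02 (95% interval -0.17 to 0.12) did not pass the test (limma adjusted p = 0.960). Total ChREBP WT lay above ChREBPβ WT by 0.63 ± 0.07 (SE, limma adjusted p = 3.95e-06), without overlap and with all 4 probes called.

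Lpin2 is the lipin best known from liver, and its arrays spread widely in the ChREBPβ line. Its level was 10.11, 10.94 and 11.95 (lowest, median and highest) in ChREBPβ WT and 10.12, 10.39 and 11.54 in ChREBPβ KO, and the SDs were 0.61 and 0.59. In the total ChREBP line the spread was smaller, 9.91, 10.04 and 10.36 in the wild type and 9.99, 10.07, 10.20, 10.31 and 10.32 in the knockout. Neither knockout differed from its wild type by more than this spread, with differences of -0.26 (limma adjusted p = 0.818) and 0.07 (limma adjusted p = 0.934). Between wild types, Lpin2 was lower in the total ChREBP line, with a difference of -0.79 ± 0.24 (SE), 1.73-fold (limma adjusted p = 0.0195). The hepatocyte markers moved with it. All 6 of 6 were lower in that comparison. ChREBPβ WT replicate 3, with the highest Lpin2 level, had the highest mean marker level (16.46), and replicate 1, with the lowest Lpin2 level, had the lowest of that group (12.83). With the marker mean as a covariate, added after the data were seen, the wild-type difference was 0.18 (limma adjusted p = 0.748). The marker means overlapped little between these wild types, so that fit cannot tell marker RNA from line. With the mean over all Lpin2 probes the wild-type difference was -0.38 (limma adjusted p = 0.0583). Of the 5 other Lpin2 probes, A_55_P2729608 was called (-0.72, limma adjusted p = 0.0229) and 4 were not, among them A_55_P2716711 at 0.07 (limma adjusted p = 0.463).

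**Figure D3:**
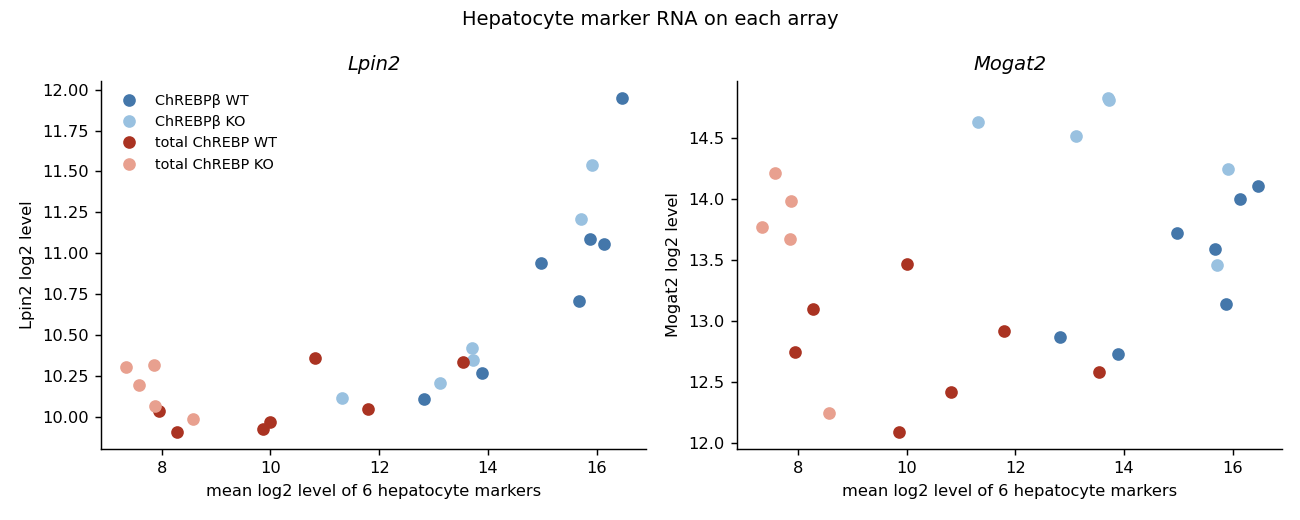
Log2 level of Lpin2 (left) and Mogat2 (right) on each of the 25 arrays (y axis) against the mean log2 level of 6 hepatocyte markers on the same array (x axis), coloured by group. The highest Lpin2 levels lie on the ChREBPβ-line arrays with the most marker RNA, and the 4 Mogat2 levels above 14.5 lie on ChREBPβ KO arrays with marker means of 11.31 to 13.72.

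Lpin3, the third lipin, went the other way from Lpin1 and rose 1.34-fold in total ChREBP KO. Its level was 9.75, 9.89 and 10.17 (lowest, median and highest) in total ChREBP WT, and the total ChREBP KO arrays read 10.11, 10.23, 10.26, 10.43 and 10.64. The groups overlapped at 1 knockout array, replicate 1 at 10.11, which lay below the highest wild-type array. The means were 9.94 ± 0.14 (SD, n = 7) and 10.33 ± 0.21 (SD, n = 5), with a difference of 0.42 ± 0.11 (SE, limma adjusted p = 0.0219). In the ChREBPβ line the levels were 9.46, 10.07 and 10.24 in the wild type and 9.62, 9.95 and 10.16 in the knockout, a difference of 0.03 (limma adjusted p = 0.971). The rise in total ChREBP KO lost its call without total ChREBP KO replicate 3, 4 or 7 (limma adjusted p = 0.0596, 0.0649 and 0.0848), with replicate number as a block (0.43, limma adjusted p = 0.0808) and with the hepatocyte markers as a covariate (0.27, limma adjusted p = 0.240). The other Lpin3 probe (A_55_P2929291) was well above background on 9 of 25 arrays and was not tested.

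Dgat1, which also esterifies fatty acids that return from lipolysis, and Dgat2, which works at the lipid droplet on newly made fatty acids, close the pathway. Dgat1 was 12.39, 13.01 and 13.19 (lowest, median and highest) in ChREBPβ WT and 12.52, 12.77 and 13.03 in ChREBPβ KO. In total ChREBP WT it was 13.23, 13.45 and 13.76, and the total ChREBP KO arrays read 13.41, 13.42, 13.42, 13.60 and 13.78. The knockouts overlapped with their wild types, with differences of -0.09 (95% interval -0.35 to 0.16, limma adjusted p = 0.882) and 0.04 (95% interval -0.23 to 0.31, limma adjusted p = 0.921). All 7 arrays of total ChREBP WT lay above all 7 of ChREBPβ WT, and the difference was 0.62 ± 0.12 (SE, limma adjusted p = 0.000813). Dgat2 was 18.15, 18.32 and 18.53 in ChREBPβ WT, 18.28, 18.43 and 18.49 in ChREBPβ KO, and 18.20, 18.39 and 18.46 in total ChREBP WT. The total ChREBP KO arrays read 18.15, 18.17, 18.19, 18.22 and 18.37, and overlapped with their wild type. The differences were 0.07 (95% interval -0.04 to 0.19) for ChREBPβ, -0.11 (95% interval -0.23 to 0.01) for total ChREBP and 0.01 (95% interval -0.10 to 0.12) between wild types, and none of these 3 passed the test (limma adjusted p = 0.748, 0.313 and 0.911).

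Mogat1, an acyltransferase of monoacylglycerol, had levels of 11.70, 12.45 and 12.68 (lowest, median and highest) in total ChREBP WT. The total ChREBP KO arrays read 12.76, 12.80, 12.82, 12.85 and 12.89. All 5 lay above the 7 wild-type arrays, yet the difference of 0.44 ± 0.15 (SE) missed the threshold (limma adjusted p = 0.0677). The SD was 0.32 in the wild type and 0.05 in the knockout. The lowest wild-type array, replicate 2, also had the highest mean level of 5 epididymis markers (15.23) and the lowest mean level of the 8 adipocyte markers (15.44) of all arrays. Without that array the difference was 0.36 (limma adjusted p = 0.118). The second Mogat1 probe (A_55_P2847527) differed by 0.40 (limma adjusted p = 0.311). In the ChREBPβ line the levels were 11.93, 12.51 and 12.79 in the wild type and 11.93, 12.17 and 12.47 in the knockout, a difference of -0.21 (limma adjusted p = 0.698). The third Mogat1 probe (A_66_P103879) was well above background on 1 of 25 arrays and was not tested.

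Mogat2, the intestinal monoacylglycerol acyltransferase, showed the largest knockout differences among the members, and none passed the test. Its level was 12.73, 13.59 and 14.11 (lowest, median and highest) in ChREBPβ WT and 13.46, 14.58 and 14.83 in ChREBPβ KO. In total ChREBP WT it was 12.09, 12.75 and 13.47, and the total ChREBP KO arrays read 12.25, 13.67, 13.77, 13.98 and 14.21. In the ChREBPβ line 5 of 6 knockout arrays lay above every wild-type array, and in the total ChREBP line 4 of 5 did. The difference was 1.02 ± 0.29 (SE), 2.02-fold, in the ChREBPβ line (unadjusted p = 0.00223, limma adjusted p = 0.328). It was 0.86 ± 0.31 (SE) in the total ChREBP line (limma adjusted p = 0.092), and 1.14 without total ChREBP KO replicate 2, the array at 12.25 (limma adjusted p = 0.0155). That was the only call among the 12 fits of this comparison that left out 1 array (0.75 to 1.14, highest limma adjusted p = 0.226). The second probe (A_52_P125795) differed by 0.63 (limma adjusted p = 0.36) and 0.64 (limma adjusted p = 0.0653). Of 4 intestine markers, 3 had a kept probe (Fabp2, Vil1 and Apoa4), and 0 of these were called in either knockout comparison. The summed level of all 4 was 11.12 to 14.38 in ChREBPβ WT and 10.07 to 14.08 in ChREBPβ KO, and 7.39 to 11.82 and 7.10 to 11.75 in the wild type and knockout of the total ChREBP line. The effects on the brightest Mogat2 probe in the lines differed by -0.16 (95% interval -1.04 to 0.72, limma adjusted p = 0.956).

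Each wash batch held arrays of all 4 groups, which allowed the comparisons to be repeated inside a batch, though a batch held only 1 or 2 arrays of a group and wash batch 2 only 1 of each. In total ChREBP KO, Agpat3 differed from its wild type by -0.48, -0.53, -0.13 and -0.69 in wash batches 1 to 4. Lpin1 differed by -0.41, -0.26, -0.42 and -0.24. Lpin3 differed by 0.45, 0.50, 0.59 and 0.12. These 3 kept their direction in 4 of 4 batches. Mogat1 and Mogat2 were above their wild type in 4 of 4 batches too, as was Mogat2 in the ChREBPβ line (0.37, 0.92, 1.40 and 1.37). In that line Mogat1 was below its wild type in 4 of 4 batches (-0.13, -0.77, -0.12 and -0.11). Such a constant sign was not particular to called genes. In the total ChREBP comparison 8 of the 10 members had it, among them Gpam, Agpat2 and Dgat2, which were not called, and so had 31.9% of all genes. In the ChREBPβ comparison 2 of the 10 members and 15.1% of all genes had it.

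**Figure D4:**
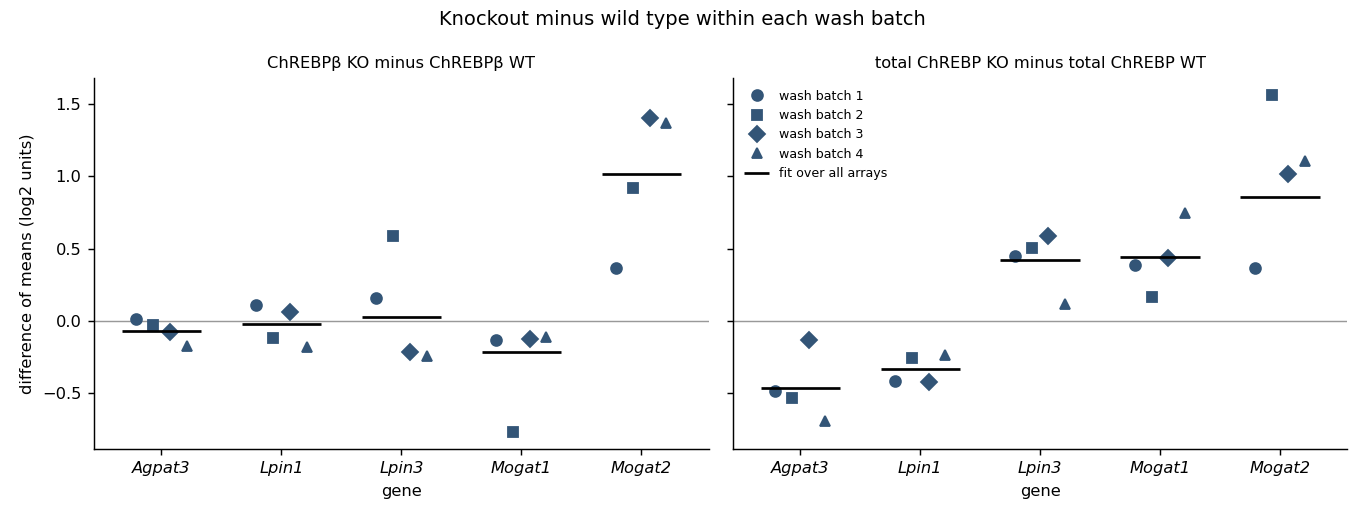
Difference of knockout and wild-type means in log2 units (y axis) within each of the 4 wash batches (symbols), for 5 genes (x axis) in the ChREBPβ line (left) and the total ChREBP line (right), with the fit over all arrays as a black line. In the total ChREBP line Agpat3 and Lpin1 lie below 0 and Lpin3, Mogat1 and Mogat2 above 0 in every batch.

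The effects of the deletions, which rest on separate arrays, were also tested against each other. At the brightest probes the effect in the total ChREBP line minus that in the ChREBPβ line was -0.40 ± 0.12 (SE) for Agpat3 (limma adjusted p = 0.0681). It was -0.31 ± 0.10 (SE) for Lpin1 (limma adjusted p = 0.118) and 0.66 ± 0.20 (SE) for Mogat1 (limma adjusted p = 0.0933). Other probes of the first 2 genes passed the test. Agpat3 at A_52_P523569 differed by -0.52 ± 0.09 (SE, limma adjusted p = 0.000692), and Lpin1 at A_55_P2735215 by -0.51 ± 0.13 (SE, limma adjusted p = 0.0225). Of the 23 tested member probes, these 2 were called for the difference of effects, where 3.24% of all probes were. In the total ChREBP comparison 6 of the 23 were called (8.95% of all probes), between wild types 13 (22.1%) and in the ChREBPβ comparison 0 (0.00505%).

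**Figure D5:**
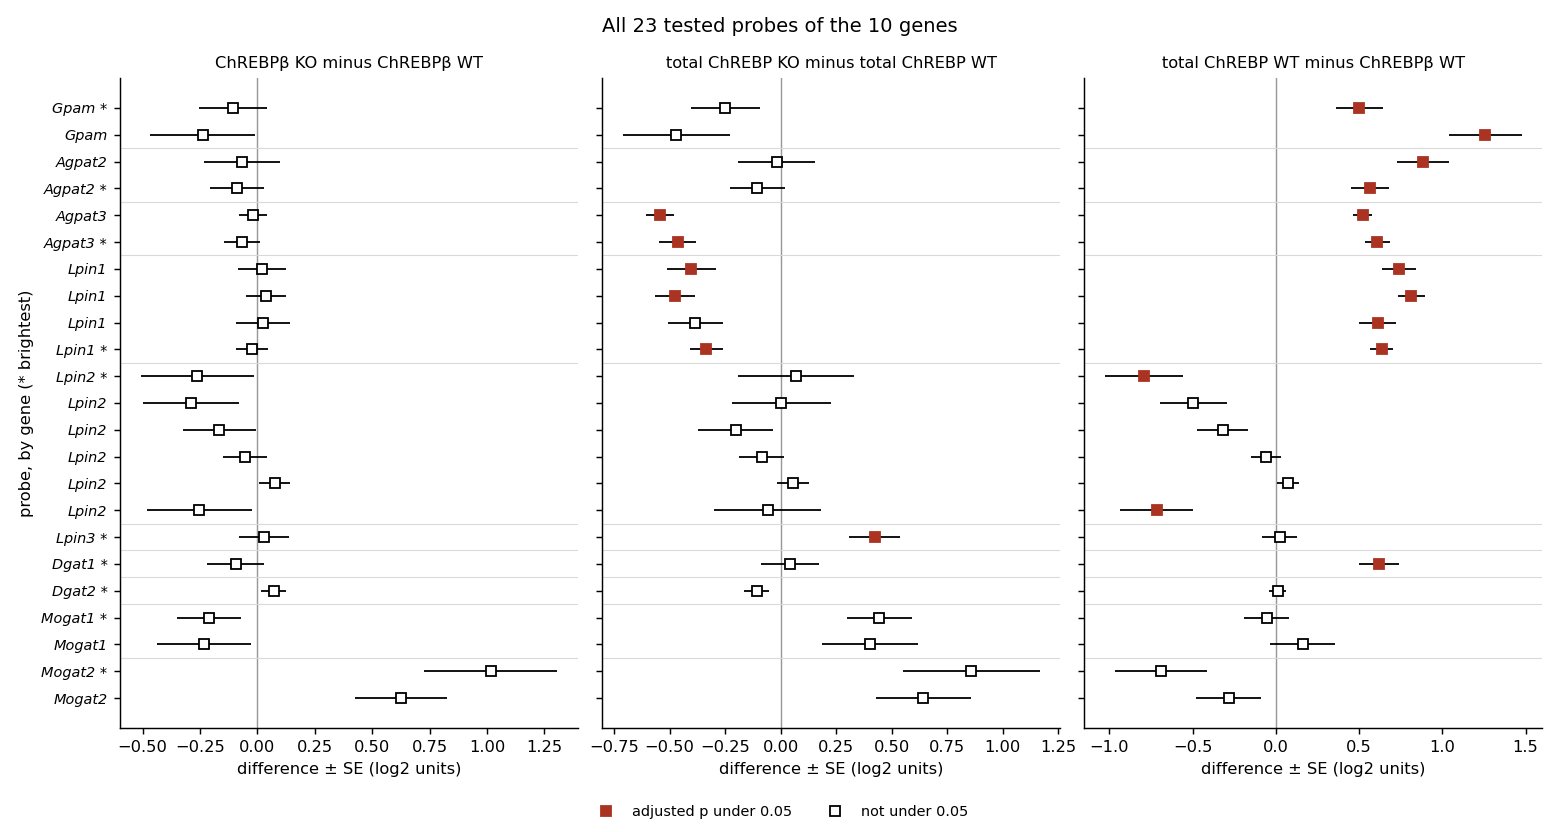
Difference ± SE in log2 units (x axis) of all 23 tested probes (rows, grouped by gene, the brightest with an asterisk) in the ChREBPβ, total ChREBP and wild-type comparisons. Filled squares passed an adjusted p under 0.05: 0, 6 and 13 of 23, beside 0.00505%, 8.95% and 22.1% of all probes, and both probes of Agpat3 and all 4 of Lpin1 lie below 0 in the middle panel.

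Around the members, 41 further genes of glycerolipid synthesis were looked at, of which 37 had a kept probe. In the ChREBPβ comparison 0 of these were called. In total ChREBP KO 5 of the 37 were higher and 3 lower, where 5.75% and 3.62% of all genes were. Among the other acyltransferases of the first steps, Gpat3 (Agpat9 on the array), a glycerol-phosphate acyltransferase of adipocytes, rose from 14.95 ± 0.21 (SD, n = 7) to 15.90 ± 0.32 (SD, n = 5). The difference was 0.95 ± 0.17 (SE, limma adjusted p = 0.000632), and it was larger than in the ChREBPβ line by 0.89 (limma adjusted p = 0.0353). Gpat4 (Agpat6 on the array), another enzyme of that step, rose by 0.37 (limma adjusted p = 0.00885). The remaining 5 of that list of 7 were not called. Of the acyl-CoA synthetases, which activate fatty acids before esterification, Acsl1 rose by 0.61 (limma adjusted p = 0.00163) and Acsl3 by 0.61 (limma adjusted p = 0.0143), 2 of 4 tested. The summed level of the 8 adipocyte markers was also higher in total ChREBP KO, without overlap with its wild type. Its part in the rises of Gpat3, Gpat4, Acsl1 and Acsl3 was not tested. Ctdnep1, the phosphatase that acts on lipins, fell by 0.22 (limma adjusted p = 0.0236), and its regulatory subunit Cnep1r1 rose by 0.23 (limma adjusted p = 0.0147), 2 of 5 tested. Awat2, a wax ester synthase of the Dgat2 family, fell by 0.69 (limma adjusted p = 0.000758), 1 of 3 tested. In the phospholipid branches 1 of 15 was called, Pgs1, a phosphatidylglycerol-phosphate synthase, which fell by 0.25 (limma adjusted p = 0.0165). Of the 3 droplet assembly genes 0 were called in either knockout comparison. The median difference over the 37 genes was 0.05 in the total ChREBP comparison and 0.02 in the ChREBPβ comparison, beside 0.02 in both for all genes.

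Genes whose brightest probe followed a member over the 25 arrays were ranked by Pearson r among 15439 genes. These arrays share group, line and batch, so r describes the layout of the arrays and is given without a test. Lpin1 was followed most closely by Ptges2 (r = 0.94), Aasdhppt (r = 0.94) and Slc27a1 (r = 0.94). Gpam was followed by Tectb (r = 0.88), Timm8a1 (r = 0.85) and Rmnd1 (r = 0.84), and Mogat1 by Tmem254a (r = 0.88), Tmem254c (r = 0.86) and Atp5c1 (r = 0.85). Dgat2, which changed little between groups, had the loosest match of these 4 members, with Cnpy4 (r = 0.76), B3gnt6 (r = 0.68) and Ube2d3 (r = 0.68).

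ChREBP and its partner Mlx are known to bind pairs of E-box letters. Promoter windows of 300 bases, from 250 before to 50 after a start site, were taken from RefSeq (GRCm38.p6), and 7 of the 10 members had 11 such windows. The letters CACGTG, which read the same on both strands, were in 2 of the 11 windows, 18.18%, and in 7.15% of all 32851 windows. Both were in lipin genes, Lpin2, which was not called in total ChREBP KO, and Lpin3, which rose. They are printed with 12 bases on either side and the match in capitals.
Lpin2, chr17:71183511-71183540, plus strand: cggagctcgcgtCACGTGgccgggccgggg
Lpin3, chr2:160880680-160880709, plus strand: gcctgtttctgcCACGTGgctcacagctca
The match began 9 bases before the start site in Lpin2 and 22 bases after it in Lpin3. The windows of Agpat3 and Lpin1, the members that fell, held no CACGTG, and neither did those of Gpam, Agpat2 and Mogat1, which were not called. So few windows cannot tie the letters to the direction of a change. A pair of CANNTG letters with 5 bases between them, on either strand, was in 0 of the 11 windows and in 0.77% of all windows. A match is a description of these letters and not a binding site, and a window without one says only that the letters are not within its 300 bases.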

How the data were processed

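The members and gene lists were chosen with earlier results of these data known. The authors hybridised Cy3-labelled cRNA to SurePrint G3 mouse arrays and read them with Agilent Feature Extraction 10.10.1.1, and the deposited scanner files hold the intensity of each spot and its flags. The deposited series table holds log2 values of 40561 probes by the authors' processing and served as an alternative. A spot had weight 1 where it was found, positive and well above background. Spots with weight 1 on 21 of the 25 arrays, or on 75% of the arrays of 1 group, were kept (42315 of 59305). This scales the study's filter to these arrays. Log2 median intensities were quantile normalised, and replicated probes were merged by their median. A model of 4 groups with wash batch was fitted in limma (version 3.58.1, R 4.3.3), with Benjamini-Hochberg adjustment over 39619 probes. A gene was its brightest kept probe, called at an adjusted p under 0.05. All 10 members were named with every probe, with up to 3 called genes per further list, the 3 genes most like each of 4 members, and Mlxipl. Intensity arrays give no counts, and the number of arrays limits the precision. The fit was also run on simulated data with known changes and independent noise. Those changes were larger than the differences of the called members, so changes of the members' size were not tested. The arrays lay on 15 slides scanned on 2 days. The alternatives covered normalisation, background, filters, batch and replicate terms, array weights, probe choice and each array left out.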

Additional observations from a re-analysis of the deposited data

Results flagged for a closer look

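Among the 40 combinations of a member and a group, 3 held an array that stood apart from the rest of its group by Dixon's criterion, and chance alone gives about 1 in 20. In ChREBPβ WT, replicate 8 had an Lpin1 level of 13.89, with the next array at 13.60 and the lowest at 13.49. In total ChREBP WT, replicate 2 had a Mogat1 level of 11.70, with the next array at 12.29. In total ChREBP KO, replicate 2 had a Mogat2 level of 12.25, with the next array at 13.67. The effect of the total ChREBP deletion differed from that of the ChREBPβ deletion at Agpat3 probe A_52_P523569, by -0.52 log2 units (limma adjusted p = 0.000692 over 25 arrays). It also differed at Lpin1 probe A_55_P2735215, by -0.51 (limma adjusted p = 0.0225). The brightest Agpat3 probe was not called for this (limma adjusted p = 0.0681). Nor were the other Lpin1 probes, the brightest among them (limma adjusted p = 0.118, 0.181 and 0.28).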

How the results depend on the processing

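Set against the reported values of single members, 497 alternative values kept direction and side of the threshold, 9 lost the call, 12 gained one and 18 changed sign, and the cause was not tested. Agpat3 stayed called lower in total ChREBP KO in all 14 alternatives (-0.56 to -0.42) and all 12 fits that left out 1 array, Lpin1 in 13 of 14 (-0.40 to -0.30) and 12 of 12, and Lpin3 in 10 of 14 (0.27 to 0.43) and 9 of 12. Lpin3 lost the call without the wash term (0.39, adjusted p = 0.0509), without total ChREBP WT replicates 2, 3 and 6, chosen after seeing the data (0.35, adjusted p = 0.173), with the hepatocyte covariate and with the replicate block.

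The number of members called in total ChREBP KO, 3 in the report, was 1 with the replicate block and 5 with array quality weights, and the count for the difference of effects, 0 in the report, was 1 with normexp background correction, with weight 1 on all arrays or without the wash term, 2 with the mean over a gene's probes and 3 with array weights. The labels do not say whether a replicate number ties arrays together. Deviations of same-numbered arrays correlated at -0.434 to 0.381 over 5 pairs, -0.231 to 0.144 over 4 and -0.125 to 0.266 over 6. So few pairs cannot decide whether the numbers pair the arrays. The replicate block moved the wild-type count from 6 to 5. Leaving out 1 array gave 0 called members in the ChREBPβ comparison, 2 to 4 in the total ChREBP comparison, 6 to 7 between wild types and 0 to 2 for the difference of effects, which reached 2 without ChREBPβ WT replicate 8 (Agpat3 and Lpin1). Over all genes, the counts called were 2429 in total ChREBP KO against 1738 with the replicate block and 3610 with array weights, 904 for the difference of effects against 504 and 1474, and 5748 between wild types against 2045 with the hepatocyte covariate.

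These values changed sign. With median centring they were 0.0019 for Lpin1 in ChREBPβ KO, 0.0040 for Dgat2 in total ChREBP KO and 0.0316 for Mogat1 between wild types. Lpin1 in ChREBPβ KO was 0.0134 with the processed signal and 0.0143 with the mean over probes, which also gave -0.0363 for Lpin2 in total ChREBP KO, 0.0172 for the difference of effects on Agpat2 and 0.0533 for Mogat1 between wild types. Lpin3 between wild types was -0.0127 with weight 1 on all arrays, a filter that kept no Dgat2 probe. The difference of effects with the replicate block was 0.0486 for Gpam and 0.0487 for Agpat2. Array weights gave 0.0058 for Agpat2 in ChREBPβ KO and 0.0361 for Mogat1 between wild types. The hepatocyte covariate gave -0.0476 for Lpin3 in ChREBPβ KO, and between wild types 0.185 for Lpin2 and -0.280 for Lpin3. Without total ChREBP WT replicates 2, 3 and 6, Dgat2 and Mogat1 between wild types were -0.0333 and 0.0013. With 1 array left out, Agpat2 ranged from -0.156 to 0.0097 in ChREBPβ KO and from -0.120 to 0.0572 for the difference of effects, Dgat1 from -0.0260 to 0.0869 in total ChREBP KO, Dgat2 from -0.0134 to 0.0451 between wild types, Lpin1 from -0.0571 to 0.0357 in ChREBPβ KO, Lpin3 from -0.0405 to 0.0885 there and from -0.0438 to 0.0728 between wild types, Mogat1 from -0.150 to 0.0399 between wild types, and Mogat2 from -0.328 to 0.131 for the difference of effects. Adjusted p-values are limma's. Signal over background kept 1 probe of Lpin3 and 1 of Mogat1 from being tested.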
